A study of Mus musculus with 35 samples.

Results

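The comparison described here set the 5 mice that received IL-4 MSCs after closed head injury and were collected at 1 wpi against the 5 Sham mice, across every gene in the table. The 10 libraries are part of a series of 35 samples in 7 groups, of which the table holds 34, and the members were chosen by their group labels and by no measured value. All animals were male C57BL/6N mice of 8 to 9 weeks at the start of the procedures. Sham mice went through every step except the impact and received no injection, and 2 of them were collected in week 1 and 3 in week 3. IL-4 MSC mice were injured and, on day 5, were injected in the left hippocampus with primary bone marrow mesenchymal stem cells (MSCs) of 1 commercial lot from C57BL/6N mice, transfected beforehand with synthetic mRNA encoding the cytokine IL-4. Tissue of the left hemisphere near the injection site, labelled as left cortex, was taken 2 days after the injection. Injury, injection, donor cells, their transfection with mRNA and IL-4 therefore differ between the groups together and cannot be told apart in this comparison. The PBS and MSC groups of the same week (injured and injected with saline or with MSCs without IL-4 mRNA, 5 mice each) were used only to test where the IL-4 MSC group differed from other injured mice. No group of the series received MSCs transfected with another mRNA, so IL-4 and transfection cannot be told apart against the MSC group either.

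IL-4 is a cytokine of type 2 immunity that signals through a receptor containing IL-4Rα and the transcription factor STAT6, and it drives macrophages toward the alternatively activated, or M2-like, state marked by arginase 1, chitinase-like proteins and the mannose receptor. An injured brain region is entered by blood monocytes, its microglia and astrocytes become reactive, and the scar is laid down as extracellular matrix. Adult cortex and hippocampus consist largely of neurons by RNA, so genes of synapses, channels and axonal transport are among the most abundant transcripts of such tissue.

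Each library held between 29838423 and 41554322 estimated counts. The correlation of log2 CPM between mice was 0.991 to 0.994 in the 10 pairs of the IL-4 MSC group and 0.985 to 0.993 in those of Sham. Mice are separate animals, so the p-values measure spread between mice, estimated in 1 fit of all 34 libraries and not from these 10 alone. The Sham mice were not alike in markers of brain region. Adora2a, the adenosine receptor of striatal neurons, was at 1.92 and 1.70 CPM in the week 1 Sham mice 0 and 1, and at 24.6, 28.1 and 31.7 CPM in the week 3 Sham mice 2, 3 and 4, beside 14.5 to 31.4 CPM in the IL-4 MSC mice. Fibcd1, a marker of hippocampal CA1 neurons, went the other way, at 68.9 and 62.0 CPM against 24.2 to 26.9 CPM. Sham mouse 4 stood above the other Sham mice in macrophage markers, lysosome, complement and cell cycle genes. The share of these differences in the results below was not tested.

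At an adjusted p under 0.05 (edgeR quasi-likelihood test, Benjamini-Hochberg), 6330 of 17131 genes differed between IL-4 MSC and Sham, which is 37% of those tested. In number the directions were nearly equal, with 3157 genes higher (18.4%) and 3173 lower (18.5%). In size they were not. The higher genes had a median log2 fold change of 0.59, with 5% to 95% of them between 0.14 and 3.63. The lower genes had a median of -0.18, a decrease of 11.9%, with 5% to 95% between -0.43 and -0.095. A change of 1 on the log2 scale, was seen in 1086 higher genes (6.34% of those tested) and the opposite, a change of -1 or below, in 28. Of the decreases, 2446 were smaller than 0.25 and a further 614 lay between 0.25 and 0.5 on the log2 scale, so that 3060 of 3173 were under 0.5. The plot of sizes shows both tails.

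**Figure D1:**
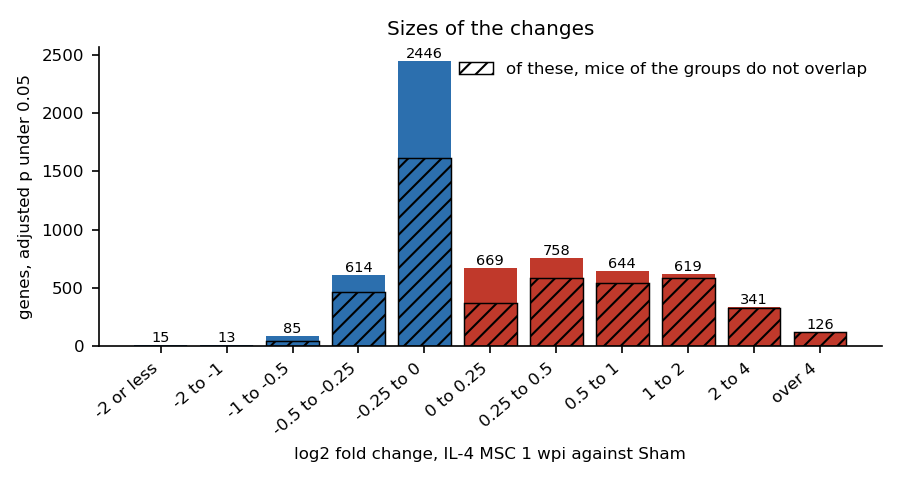
Number of genes with adjusted p under 0.05 (vertical axis) by log2 fold change of IL-4 MSC 1 wpi against Sham (horizontal axis), with decreases in blue and increases in red. The hatched part counts genes whose 5 IL-4 MSC mice and 5 Sham mice do not overlap in log2 CPM. The tallest bar holds the 2446 decreases under 0.25, of which 1620 are without overlap, while 126 genes rose by over 4.

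The genes of the small decreases were abundant and varied little between mice. Lower genes had a median standard error of 0.045 on the log2 scale and a median Sham level of 50.9 TPM (the authors' per-length transcript levels), whereas higher genes had a median standard error of 0.10 and a median Sham level of 6.24 TPM. Of the 3173 lower genes, 2136 had every IL-4 MSC mouse below every Sham mouse, and 2551 of the 3157 higher genes had every mouse above. Over all genes tested, 13.4% were without overlap and lower and 15.4% without overlap and higher. The lower genes summed to 498457 CPM in Sham (range 486356 to 507823) and to 433794 CPM in IL-4 MSC mice (425203 to 447432). The higher genes summed to 77484 CPM in Sham (76451 to 79290) and to 107956 CPM in IL-4 MSC mice (103399 to 112975). Neither pair of ranges overlapped, although both sums are of genes chosen on this contrast.

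The share of genes called in each direction varied with the mean level in Sham, which is 1 arm of the contrast. The median standard error was 0.34 below 0.5 TPM and 0.045 above 128 TPM, so small falls could hardly be called at low levels. A gene near 0 in Sham also has little room to fall. The bands therefore do not separate level from the power to call a fall. Below 0.5 TPM in Sham, 25.7% of 1379 genes were higher and 1.52% lower. From 32 to 128 TPM, 8.39% of 4278 genes were higher and 36.2% lower, and above 128 TPM, 12.7% of 1265 genes were higher and 49.8% lower. Because CPM values are shares of a library, the balance of the directions also depended on how libraries were scaled. With TMM scaling, used throughout, 49.9% of the called genes were higher and the median of all genes was -0.018. With scaling to the library total alone, 4255 genes were higher and 1258 lower, so that 77.2% were higher, and the median of all genes was 0.055. With 12 housekeeping genes as the reference 43.7% were higher. The large rises were nearly equal in number under these scalings, at 1086, 1153 and 1055 genes. Leaving out Sham mouse 0 gave 3291 higher and 1836 lower genes, and leaving out Sham mouse 2 gave 3319 and 2024.

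**Figure D2:**
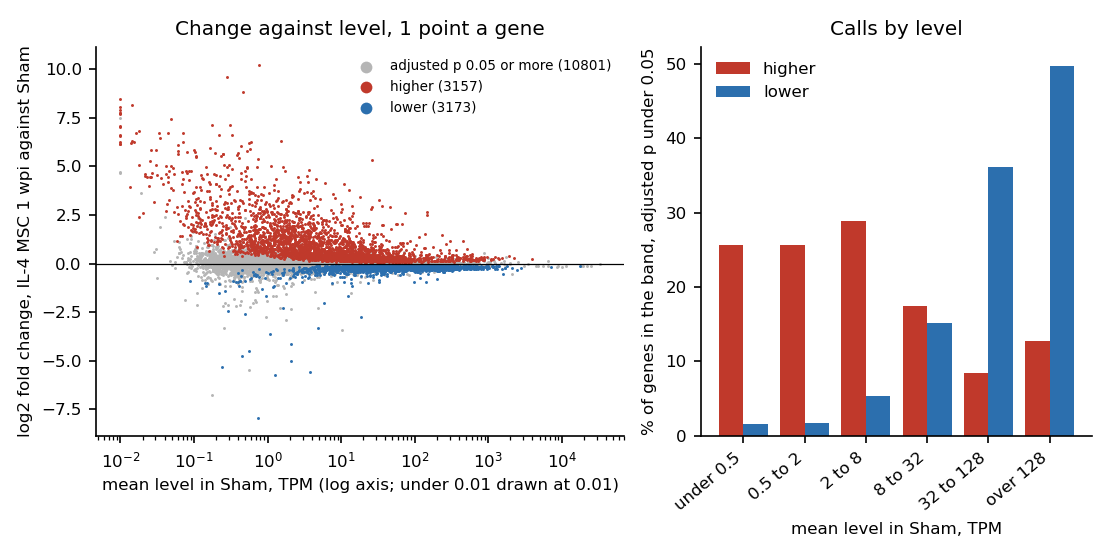
Left, each point is a gene, with its mean Sham level in TPM on a log axis and its log2 fold change of IL-4 MSC 1 wpi against Sham (red 3157 higher, blue 3173 lower, grey not called). Right, percent of the genes in each band of Sham level that were higher or lower: the share of lower genes goes from 1.52% in the band of lowest level to 49.8% in the highest. Small falls could hardly be called in the lowest band, where standard errors were largest.

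The largest rises included genes known from macrophages activated by IL-4 and from monocyte recruitment, several of them close to absent in Sham tissue. Chil3, a chitinase-like protein of M2-like mouse macrophages (chr3:106147554-106167564 in GRCm38), was at 182, 144, 95.2, 198 and 103 CPM in the IL-4 MSC mice and at 0.115, 0.0738, 0.235, 0.0928 and 0.0926 CPM in Sham. All 5 Sham libraries together held 20 Chil3 counts, and the ratio of the summed counts was 1220 (95% exact interval 787 to 1990, counting error only). The log2 fold change was 10.22 ± 0.46 (SE, adjusted p = 1.06e-16 in edgeR). Arg1, arginase 1, which turns arginine into ornithine (chr10:24915221-24927484), was at 164, 148, 163, 147 and 106 CPM against 0.0926 to 0.295 CPM in Sham, a log2 fold change of 9.57 ± 0.61 (edgeR adjusted p = 7.51e-14). Every IL-4 MSC mouse was far above every Sham mouse in both genes. In bulk tissue more cells of a type and more RNA per cell cannot be told apart, nor can fewer cells and less RNA per cell. In the other injured groups Chil3 reached 0.672 ± 0.229 CPM with PBS and 0.565 ± 0.298 CPM with MSCs, and Arg1 2.37 ± 2.62 and 2.95 ± 3.43 CPM (SD, n = 5).

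Retnla, a secreted product of IL-4-activated macrophages, was at 7.12, 11.9, 8.38, 6.29 and 9.73 CPM in the IL-4 MSC mice and at no more than 0.134 CPM in Sham (log2 fold change 7.12 ± 0.37, edgeR adjusted p = 1.22e-15). It was 7.42 higher than with PBS and 7.43 higher than with MSCs on the log2 scale. Mrc1, the mannose receptor, had a measurable Sham level of 6.91 ± 1.76 CPM and stood at 91.5 ± 9.70 CPM in the IL-4 MSC mice (SD, n = 5; log2 fold change 3.72 ± 0.18, edgeR adjusted p = 5.38e-16). The 5 values, 103, 81.9, 89.4, 101 and 82.9 CPM, lay above the Sham maximum of 9.48 CPM, and PBS and MSC mice stayed at 9.48 ± 0.537 and 8.82 ± 1.38 CPM.

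Of 34 genes listed as responding to IL-4 in macrophages, 30 rose and 1 fell, with a median log2 fold change of 2.25 against -0.018 for all genes tested. The list contains Egr2, which fell, while Ccl17 and Ccl22, chemokines of type 2 immunity, and Matk were not called. Against PBS 27 of the 34 were higher, where 11.2% of all genes were higher and 6.16% lower, and against MSC likewise 27, where 7.66% of all genes were higher and 1.03% lower. The mean log2 CPM of the list was 3.05 to 3.38 in the IL-4 MSC mice and 0.21 to 0.47 in Sham. Of 16 genes of the IL-4 and IL-13 receptors and their signalling, 12 rose and none fell. Il4ra, the receptor chain that binds IL-4, went from 6.62 ± 0.973 to 37.3 ± 4.89 CPM and Stat6 from 11.2 ± 1.52 to 21.5 ± 1.39 CPM (SD, n = 5; log2 fold changes 2.50 ± 0.24 and 0.94 ± 0.083, edgeR adjusted p = 3.1e-10 and 7.49e-11). Jak1, Irs1, Irs2 and Ptpn11 were not called.

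Il4 itself was barely detected. Its counts were 4, 7, 10, 12 and 9 in the IL-4 MSC mice and 4, 3, 0, 7 and 4 in Sham, and the gene fell below the count filter and was not tested. In CPM the IL-4 MSC mice (0.131 to 0.360) overlapped Sham (0 to 0.217) and the MSC group (0.125 to 0.273). The authors' index was of GENCODE protein-coding transcripts, and the sequence of the synthetic mRNA is not given in the sources used here. Whether any of it matches the Il4 or α-globin transcripts of that index is therefore not known, and reads from it and from the cells' own genes cannot be told apart. Hba-a2, an α-globin gene, was at 162, 255, 214, 226 and 66.8 CPM in the IL-4 MSC mice and at 3.90, 7.24, 5.23, 5.94 and 0.648 CPM in Sham (log2 fold change 5.32 ± 0.68, edgeR adjusted p = 1.65e-07), without overlap, and at 1.37 to 11.6 CPM with PBS and 2.57 to 16.2 CPM with MSCs. Hbb-bs, the β-globin partner made in the same red cells, was at 1.59 to 4.70 CPM in the IL-4 MSC mice and 0.648 to 7.70 CPM in Sham and was not called, and neither was Alas2, the haem enzyme of red cell precursors. Hba-a1, a near-identical copy of Hba-a2, was at 0.360 ± 0.165 against 1.45 ± 0.822 CPM (SD, n = 5), with overlap. Its log2 fold change of -2.01 ± 0.78 (edgeR adjusted p = 0.0417) lost the call with the library total and without any one of Sham mice 0 to 3 or of IL-4 MSC mice 0 to 3. The division of reads between the α-globin copies is uncertain.

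Short stretches of promoter are shown for genes of this response whose 250 bases upstream of a RefSeq start site hold TTCNNNNGAA, the palindrome that STAT6 is known to bind. The windows are from GRCm38.p6, read 5′ to 3′ on the strand of the gene, with the match in capitals. They lie at chr16:48842454-48842483 (plus strand) for Retnla, chr6:129472891-129472920 (minus strand) for Clec7a and chr19:29410827-29410856 (plus strand) for Pdcd1lg2.
Retnla: agaatcataaTTCACAAGAAattgctaaac
Clec7a: catttcagttTTCTTCAGAAgttacagcct
Pdcd1lg2: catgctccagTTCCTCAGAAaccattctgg
All of these genes rose, and some genes that did not rise also hold a match, as given below. Clec7a, the β-glucan receptor Dectin-1, went from 0.443 to 0.648 CPM in the Sham mice to 20.5 to 42.0 CPM, and Pdcd1lg2, the PD-1 ligand PD-L2, from 0.0759 ± 0.0527 to 4.20 ± 0.815 CPM (SD, n = 5; edgeR adjusted p = 3.76e-14). The motif was searched on both strands. It was present in 5 of 24 listed IL-4 response genes with a promoter in the table (20.8%), in 8.13% of the 836 matched genes that rose by 1 or more on the log2 scale, in 5.81% of the 13279 tested genes with a promoter and in 6.76% of all 27025 promoters. Of all higher genes with a promoter 5.86% held the motif, and of all lower genes 5.59%, both close to the share of tested genes. Ccl17 holds a match and was not called, and Bdnf holds a match and fell. A match is a stretch of letters and not a shown binding site.

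Chemokines and monocyte genes rose with them. Ccl8 was at 32.8, 32.7, 31.4, 42.1 and 27.0 CPM in the IL-4 MSC mice against 0 to 0.247 CPM in Sham, and Ccl24, which attracts eosinophils, at 21.3, 20.9, 24.5, 16.2 and 12.6 CPM against 0.124 to 0.394 CPM (log2 fold changes 8.80 ± 0.46 and 6.19 ± 0.28, edgeR adjusted p = 1.37e-15 and 1.06e-16). No mouse of one group came near the other in either gene. Of 21 chemokine ligands tested, 15 rose, Ccl2, Ccl7 and Ccl5 among them with log2 fold changes of 6.63, 6.61 and 6.02. Cxcl12, which holds CXCR4-bearing cells in place, and Cx3cl1, the neuronal ligand of the microglial receptor CX3CR1, fell. Cxcl12 was at 47.8, 45.2, 45.2, 46.6 and 41.2 CPM against 80.5, 72.4, 68.1, 67.2 and 68.5 CPM (log2 fold change -0.66 ± 0.085, edgeR adjusted p = 1.66e-07), without overlap, and was also lower than with MSCs, by 0.55 on the log2 scale (edgeR adjusted p = 1.57e-05).

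All 24 monocyte and macrophage markers rose, with a median log2 fold change of 2.73 and no overlap between the groups. Against Sham, 20 of the 24 were also higher with PBS and 23 with MSCs. In the IL-4 MSC mice 21 were higher than with PBS and 20 higher than with MSCs, where 11.2% and 7.66% of all genes were. Csf1r is both in this list and among the microglia markers below, so the lists do not fully separate macrophages from microglia. Ly6c2 and Ccr2, markers of inflammatory monocytes, reached 3.85 ± 0.982 and 12.2 ± 2.10 CPM from 0.0572 ± 0.0393 and 0.996 ± 0.246 CPM, and Adgre1, the macrophage antigen F4/80, 39.5 ± 4.00 from 5.47 ± 1.71 CPM (SD, n = 5). Of 18 homeostatic microglia markers 15 rose, with a smaller median of 0.57, and P2ry12, a purinergic receptor of resting microglia, was not called (log2 fold change 0.067 ± 0.094). Of 32 lysosome genes 29 rose with a median of 0.72, led by Grn, Ctsz and Ctsl, and of 18 complement genes 16 rose with a median of 2.01. Csf3r, Retnlg and Mmp8 were the 3 of 9 neutrophil markers that rose, while the defining S100a8 and S100a9 were not called. For eosinophils, basophils and mast cells 4 of 7 tested markers rose at levels of at most 2.25 CPM, Siglecf and Ccr3 among them. For T cells 7 of 14 rose at low levels, such as Cd3e at 0.163 to 0.436 CPM against 0 to 0.123 CPM.

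Antigen presentation and interferon genes were raised throughout. All 21 interferon-stimulated genes rose, with a median log2 fold change of 2.76, and all 21 were also higher than with PBS and than with MSCs. Irf7, the transcription factor that amplifies interferon production, was at 37.3, 47.7, 45.4, 31.0 and 49.3 CPM against 1.32, 1.28, 1.34, 1.21 and 1.57 CPM in Sham (log2 fold change 4.97 ± 0.25, edgeR adjusted p = 6.11e-16). The groups lay far apart, and PBS and MSC mice were between them at 6.18 ± 2.00 and 9.22 ± 1.83 CPM. All 11 MHC class I genes and all 7 MHC class II genes rose, with medians of 2.68 and 3.82. H2-Ab1, a class II chain, was at 19.4 to 30 CPM against 0.680 to 1.49 CPM. Of 17 proteasome core subunits the 3 that rose were Psmb8, Psmb9 and Psmb10, the subunits of the interferon-inducible immunoproteasome, at log2 fold changes of 2.94, 2.70 and 0.34. The other 14 were not called, although scaling to the library total raised the number of higher subunits to 8.

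Glial scar, matrix and growth genes formed the next group. Gfap, the intermediate filament of reactive astrocytes, had the largest gain in CPM among called genes, at 1120, 1390, 1220, 990 and 956 CPM against 190, 216, 173, 156 and 175 CPM in Sham (log2 fold change 2.64 ± 0.19, edgeR adjusted p = 6.04e-13). The groups did not overlap, and the difference from PBS of 0.26 ± 0.18 was not called (edgeR adjusted p = 0.343). Of 23 reactive astrocyte genes 21 rose, Vim by 2.96 and Emp1 by 3.47. Of 35 matrix and wound genes 34 rose, such as Fn1, fibronectin, by 2.09 and Lox, the collagen cross-linking enzyme, by 4.52, Dcn being the one not called. All 35 cell cycle genes rose, with a median of 1.48, and Top2a, a topoisomerase of dividing cells, went from 2.36 ± 1.11 to 19.3 ± 3.47 CPM (SD, n = 5). Cytosolic ribosomal proteins rose by little but nearly together, 46 of 48 with a median of 0.25 and 46 to 48 under every scaling, and Eef1a1, the elongation factor, by 0.31 ± 0.033. Among vascular genes 10 of 16 endothelial genes rose, with Pecam1 at 45.6 ± 6.00 against 20.4 ± 2.36 CPM and at 20.6 ± 0.934 CPM with PBS.

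**Figure D3:**
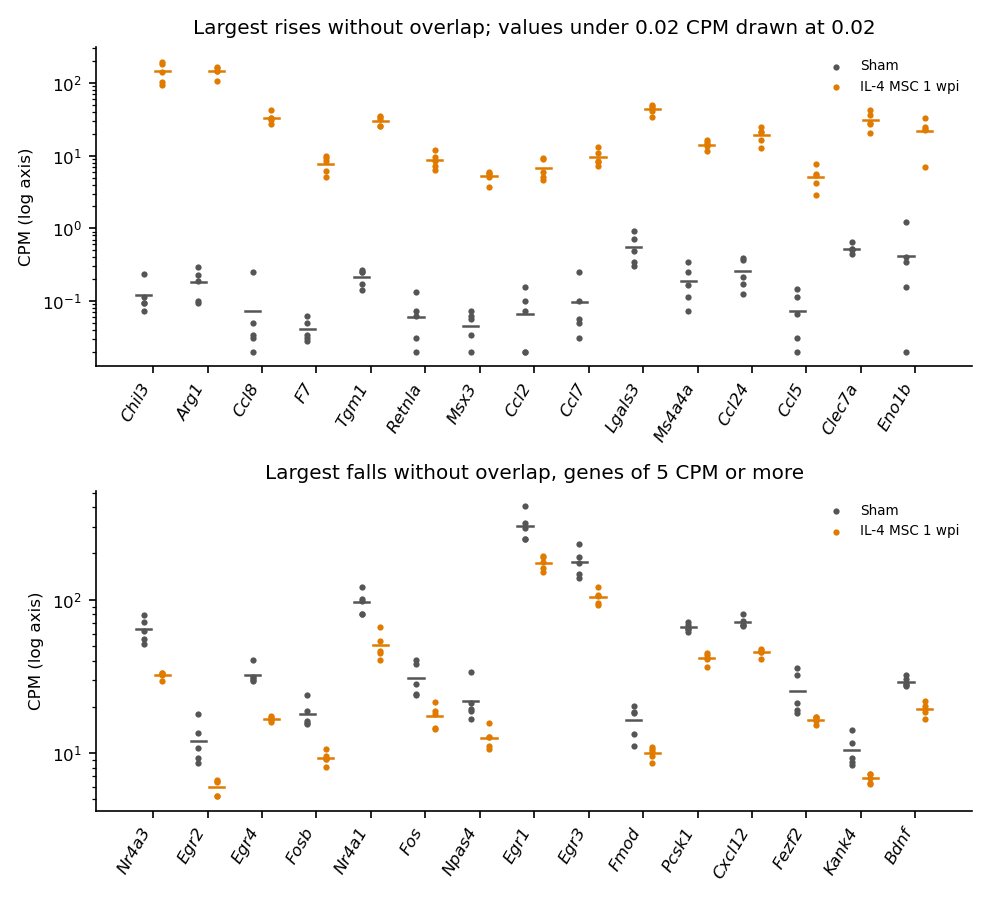
CPM in each mouse (points, log axis) with the group mean (line) for the 15 genes of the largest rise and the 15 of the largest fall among genes of at least 5 CPM in the higher group; grey is Sham and orange IL-4 MSC 1 wpi. Genes were chosen among those whose groups do not overlap, with Chil3 at 95.2 to 198 CPM against at most 0.235 CPM and Nr4a3 at 29.2 to 33.3 CPM against at least 51.5 CPM.

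Several of the other large rises are of genes of varied function. Msx3, a homeobox transcription factor (chr7:140046157-140049089), was at 5.62, 6.00, 5.78, 5.06 and 3.75 CPM in the IL-4 MSC mice and at 0 to 0.0738 CPM in Sham, from 8 counts in all (ratio of counts 112, 95% exact interval 56.4 to 259). It stayed at that low level with PBS and MSCs, where the log2 differences were 6.87 and 7.59. F7, coagulation factor VII, was at 5.11 to 9.77 CPM against at most 0.0619 CPM. Tgm1, a transglutaminase, rose by 7.14 ± 0.46 but its difference from PBS, 0.57 ± 0.28, was not called (edgeR adjusted p = 0.167), whereas it was 1.05 ± 0.28 higher than with MSCs (edgeR adjusted p = 0.0141). Eno1b, which is near-identical in sequence to the enolase gene Eno1 and so uncertain, ranged from 6.94 to 32.6 CPM in the IL-4 MSC mice, and Eno1 was not called. Hoxc10, Hoxa10 and Hoxa9, posterior patterning genes not normally used in the forebrain, were at 0 counts in all Sham mice and at 0.482 ± 0.161, 0.339 ± 0.0821 and 0.280 ± 0.166 CPM in the IL-4 MSC mice (SD, n = 5). Of 17 posterior Hox genes listed 10 passed the count filter, and all 10 had means under 1 CPM in both groups. Of these 6 were higher than in Sham and 6 higher than with PBS, while none was called against the MSC group, where Hoxc10 was at 0.346 ± 0.268 CPM. A gene at 0 counts in Sham can pass the filter only through other groups, so 6 of 10 is not a share of the list.

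Among genes of at least 5 CPM whose groups did not overlap, the largest falls included immediate early genes, the transcription factors and effectors that neurons switch on within minutes of activity. Nr4a3, an orphan nuclear receptor (chr4:48045153-48086447), was at 32.1, 29.2, 32.9, 33.0 and 33.3 CPM in the IL-4 MSC mice and at 78.9, 71.6, 51.5, 55.6 and 62.8 CPM in Sham (log2 fold change -1.0 ± 0.23, edgeR adjusted p = 9.18e-04). Egr4, a zinc finger factor, was at 15.9, 16.3, 17, 17.3 and 16.5 CPM against 31.0, 29.8, 29.6, 30.9 and 40.5 CPM (log2 fold change -0.96 ± 0.12, edgeR adjusted p = 1.13e-07). Both sets were without overlap, and the IL-4 MSC values spread less than those of Sham. Of 17 immediate early genes 11 fell, including Egr1, Egr2, Egr3, Fos, Fosb, Npas4 and Nr4a1 with log2 fold changes from -0.99 to -0.76, and none rose. The count was 11 or 12 under every scaling and 11 without any one mouse. Junb, Ier2, Fosl2, Dusp1, Btg2 and Per1 were not called. None of the 17 was lower than with PBS or with MSCs, so the fall against Sham was not told apart from that of the other injured mice. With only the week 1 Sham mice, Fos and Npas4 kept their direction and lost the call, at -0.58 (edgeR adjusted p = 0.0604) and -0.53 (adjusted p = 0.163).

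Pcsk1, a proprotein convertase of peptide secretion, was at 41.0, 36.3, 41.8, 43.2 and 44.9 CPM against 61.3, 64.4, 63.9, 68.4 and 71.9 CPM, without overlap (log2 fold change -0.67 ± 0.062, edgeR adjusted p = 1.68e-10). Bdnf, the neurotrophin, fell by 0.60 on the log2 scale. The promoter of Pcsk1 holds TGACGTCA, the full cyclic AMP response element, at chr13:75089769-75089796 (plus strand), and that of Egr2 holds a CArG box, the site of serum response factor, at chr10:67537787-67537816 (plus strand). These are shown because both factors are known to drive activity genes.
Pcsk1: caggtagatcTGACGTCAagagatggct
Egr2: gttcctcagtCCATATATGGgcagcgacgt
On both strands of the same 250 bases, TGACGTCA was in 101 of 2467 lower genes (4.09%), in 1.62% of higher genes and in 2.59% of all tested genes with a promoter. The CArG box was in 1.54% of lower genes and 1.47% of those tested. Of 13 immediate early genes with a promoter, Btg2 and Dusp1 hold the first motif and Egr2 the second, and of these only Egr2 fell.

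Genes of neuronal structure and transmission were lower by small amounts. Over 7 neuronal lists (receptors, vesicle release, channels, calcium signalling and cytoskeleton, with 230 distinct genes), 168 were lower, which is 73%, beside 18.5% of all genes, none was higher, and the median was -0.23. The 18.5% is over genes of every level. Of genes from 32 to 128 TPM in Sham 36.2% were lower, and of those above 128 TPM 49.8%. The lists were not matched to other genes by level. Interneuron markers, kept out of this pool, had 6 of 17 lower and none higher. None fell by 1 or more, and 2 fell by over 0.5. Over the scalings 112 to 179 of the 230 were lower, fewest with the library total, and none was higher, with medians of -0.25 to -0.16. Leaving out each mouse in turn gave 129 to 160 lower genes. Against PBS 68 were lower and 1 higher, where 6.16% of all genes were lower and 11.2% higher. Against MSC 3 of the 230 were lower and none higher, where 1.03% of all genes were lower. The decrease against Sham was therefore, for nearly all of these genes, not told apart from that with MSCs.

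Vesicle release was the most uniform group, with 31 of 32 genes lower and Stx1a alone not called. Snap25, the SNARE protein of vesicle fusion (chr2:136713453-136782428), was at 1660, 1730, 1770, 1730 and 1880 CPM against 2120, 2120, 2440, 2030 and 2160 CPM (log2 fold change -0.31 ± 0.052, edgeR adjusted p = 1.36e-05). Each IL-4 MSC mouse was below each Sham mouse, and the difference from PBS was -0.0017 ± 0.052. At the excitatory postsynapse 30 of 38 genes were lower, Homer1, a scaffold with activity-induced forms, by 0.54 and Gria4 by 0.26, whereas Grin2b, Shank3 and Nrgn were among the 8 not called. The number lower was 17 without Sham mouse 0 and 16 with the library total. At the GABA synapse 15 of 21 were lower, including Slc12a5, the chloride exporter KCC2, from 670 ± 21.4 to 549 ± 13.4 CPM (SD, n = 5), and 8 were with the library total. Of 29 cytoskeletal and transport genes 26 were lower, Map1a by 0.28 and Kif1a by 0.26. Potassium and HCN channels were less uniform, with 23 of 46 lower, 11 to 28 over the scalings and 15 without Sham mouse 0.

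The first genes named here were picked for the smallest p among the small decreases, so a narrow spread is partly a result of that choice. Other called small decreases spread more, such as Camk2a at 2320 ± 93.2 against 2720 ± 243 CPM (SD, n = 5), with overlap. Among small decreases Tcaf1, a regulator of TRP channels (chr6:42668002-42710088), had the smallest p, at 305, 277, 288, 294 and 302 CPM against 357, 355, 348, 351 and 354 CPM (log2 fold change -0.27 ± 0.028, edgeR adjusted p = 3.84e-09). All Sham mice lay within 10 CPM of each other, and above every IL-4 MSC mouse. Clstn3, a synaptic adhesion protein, Kif21a, a kinesin, Stau2, which carries RNA into dendrites, and Gdap1 were next with falls of 0.24 to 0.33. Bcan, the brevican of perineuronal matrix, was at 146, 172, 156, 166 and 146 CPM against 203, 213, 206, 207 and 188 CPM, and it was also 0.33 lower than with MSCs (edgeR adjusted p = 9.8e-07). By loss of CPM, which also grows with transcript length, the first was Slc1a2, the astrocyte glutamate transporter GLT-1 (chr2:102658659-102790784), at 3220, 3330, 3160, 3130 and 3210 CPM against 4000, 3760, 3890, 3710 and 3610 CPM (log2 fold change -0.24 ± 0.049, edgeR adjusted p = 1.75e-04). It had no overlap, and was lower than with PBS and MSCs too, by 0.25 and 0.26 (edgeR adjusted p = 3.92e-04 and 3.53e-04). Of the 20 homeostatic astrocyte genes, Slc1a2 and Gpc5 fell, the latter by 0.29, and 5 rose (Aqp4, Aldh1l1, Gja1, Mlc1 and Slc1a3). The list median of -0.016 changed sign with the scaling.

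**Figure D4:**
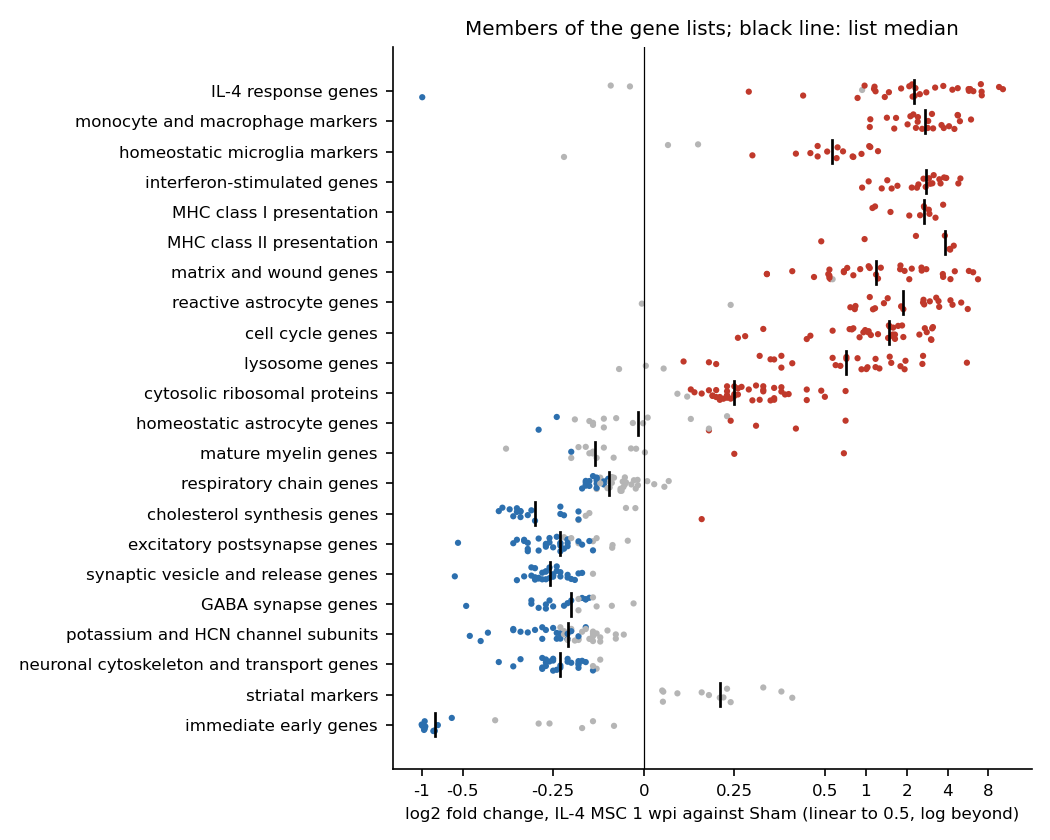
Log2 fold change of IL-4 MSC 1 wpi against Sham for every tested member of 22 gene lists (horizontal axis linear to 0.5 and logarithmic beyond; red higher, blue lower, grey not called; black line, list median). Immune and matrix lists lie to the right, with medians up to 3.82, and synaptic lists lie in a narrow band near -0.23.

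Metabolic genes gave smaller or divided changes. Of 23 cholesterol synthesis genes 17 were lower with a median of -0.30. Ebp alone was higher, and its call was lost with housekeeping genes as reference and without Sham mouse 1 or IL-4 MSC mouse 1. Srebf2, the transcription factor over the pathway, went from 228 ± 9.23 to 180 ± 7.18 CPM (SD, n = 5; edgeR adjusted p = 7.91e-08). None of the 23 was lower than with PBS. Of 44 nuclear respiratory chain genes 16 were lower and none higher. Beside this, 18.5% of all genes were lower, 36.2% of those from 32 to 128 TPM in Sham and 49.8% of those above 128 TPM. The number lower ran from 2 with the library total to 23 with housekeeping genes as reference. It was 6 to 13 without any one mouse, fewest without Sham mouse 2. Against PBS 1 of the 44 was lower, and against MSC none was. Of the 13 mitochondrially encoded genes mt-Co3 and mt-Nd2 were lower, with overlap between the groups, and the calls were kept in 10 and 9 of 22 alternatives. The number of these genes that were lower was 0 with the library total, with the upper quartile and without Sham mouse 0 or 2 or IL-4 MSC mouse 0, 2, 3 or 4, and it was 6 with housekeeping genes as reference and 5 without Sham mouse 4. Among glycolysis genes Hk2 and Ldha rose, Pfkm, Eno2, Hk1 and Ldhb were among the 5 that fell (3 without Sham mouse 0 or 2 or IL-4 MSC mouse 0 or 3), and the median of -0.031 changed sign with the scaling. Of 16 mature myelin genes 13 were not called, 1 was lower, and Trf and Cldn11 were higher. The list median was -0.13, and 13 of the 16 had a log2 fold change below 0. Without Sham mouse 1, 1 gene was higher and 2 were lower, and over the mice left out in turn 0 to 2 were lower.

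Some region markers differed between the Sham mice of week 1 and week 3. The part of region in the decreases was not tested. No striatal (13) or thalamic (12) marker was called, but the striatal list was at a mean log2 CPM of 2.99 and 3.01 in Sham mice 0 and 1, at 4.78 to 5.07 in Sham mice 2 to 4 and at 4.03 to 5.03 in the IL-4 MSC mice. Of 13 hippocampal markers 1 was lower and none higher, with a median of -0.31. The mean log2 CPM of that list was 4.13 to 4.28 in the IL-4 MSC mice and 4.20 to 4.85 in Sham. Of 20 cortical projection neuron markers 8 were lower, but 2 to 7 without any one mouse, fewest without Sham mouse 0. Fezf2, the factor of deep-layer neurons, was at 17.1, 15.2, 16.1, 16.8 and 17.1 CPM against 32.1, 35.5, 21, 18.3 and 19.1 CPM, so the Sham mice of week 1 held the highest values and those of week 3 were close to the IL-4 MSC mice. Its log2 fold change of -0.62 was -0.49 (edgeR adjusted p = 0.0677) without Sham mouse 0. Against the week 1 Sham mice alone 3092 genes were higher and 2797 lower, and against those of week 3 alone 2833 and 2141. Decreases of under 0.5 numbered 2472 and 2063 in these fits, and the genes they shared were not counted. Between the Sham weeks themselves 7 genes were higher and 9 lower at an adjusted p under 0.05 in edgeR, with 2697 at an unadjusted p under 0.05.

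The 28 genes lower by at least 1 on the log2 scale were of another kind. In Sham 18 of them were under 1 CPM, 3 (Gh, Th and Grp) were at 5 CPM or more, and 9 were without overlap. Sham mouse 1 had the highest value in 18 of the 28. Olfactory epithelium and bulb genes such as Omp, Cyp2g1 and Ugt2a1, 11 in all and grouped after their values were seen, summed to 8.74, 19.8, 10.4, 3.06 and 2.96 CPM in Sham, to 0.932 to 1.96 CPM in the IL-4 MSC mice, to 2.85 to 3.92 CPM with PBS and to 1.43 to 2.68 CPM with MSCs, which overlaps the IL-4 MSC mice. Ugt2a1 had 0 counts in the IL-4 MSC mice and 160 in Sham, at least 53.5-fold lower with a floor of 3 counts over the group. The pituitary hormone genes and their factors, 4 in all, summed to 0.20, 15.4, 9.30, 16.5 and 2.04 CPM in Sham against 0.232 to 2.87 CPM. In both of these sets the Sham mice differed among themselves by several times, and the source of the transcripts was not tested. The number of genes fell to 9 with the replicate number as a block and rose to 116 against the week 1 Sham mice.

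**Figure D5:**
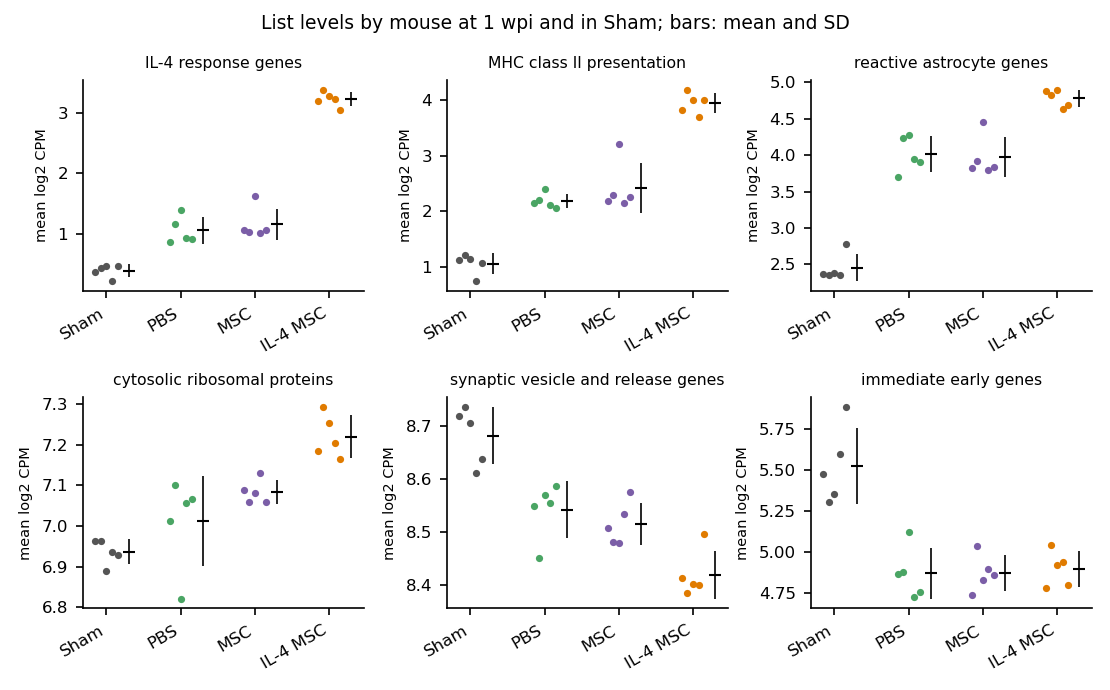
Mean log2 CPM of 6 gene lists in each mouse of Sham and of the PBS, MSC and IL-4 MSC groups of 1 wpi (points), with the group mean and SD (bars, n = 5). IL-4 response genes are at 3.05 to 3.38 in the IL-4 MSC mice and 0.21 to 0.47 in Sham, while immediate early genes lie at about one level in the 3 injured groups, all below Sham.

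The lower genes were also longer. Their median transcript length was 4133 bases against 2842 for higher genes and 2970 for genes not called, with a length for 99.4% of the genes tested, and their median gene span was 40 kb against 20.2 and 20.0 kb. Among genes of at least 8 TPM in Sham, the share that was lower was 12.9%, 23.8%, 32.5% and 41.5% in 4 equal bins from the shortest to the longest transcripts, and the share that was higher was 17.4%, 14.7%, 12.2% and 8.71%. By GC content the bins were closer, with 31.9%, 29.9%, 24.2% and 24.8% lower. Length, level and neuronal use go together across these genes, and their parts were not tested separately.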

How the data were processed

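Total RNA of left hemisphere tissue was sequenced from 35 mice in 7 groups. The table holds 34 of them, since the authors left out 1 PBS mouse of week 3 whose transcript counts stood apart. Per the labels and the study's methods, the authors trimmed reads with cutadapt 2.4, estimated transcript abundance with kallisto 0.46 against GENCODE mouse protein-coding transcripts, and deposited estimated counts and TPM per gene. The deposited table also holds the authors' fold changes and p-values for their own comparisons, which were not used. Estimated counts were rounded to whole numbers. With edgeR 4.0.16 in R 4.3.3, 17131 of 21203 genes passed filterByExpr, libraries were scaled by TMM, and glmQLFit was fitted to all 34 libraries with a coefficient per group. Each contrast was tested two-sided with glmQLFTest and Benjamini-Hochberg adjustment over all genes, and called at an adjusted p under 0.05. SE is that of the log2 fold change, and CPM uses TMM-scaled library sizes. List levels are means of log2 CPM with a prior count of 2. Totals were 29838423 to 41554322 estimated counts per library, so a gene with few counts is limited by counting error. No overlap means every mouse of one group above every mouse of the other. The fit was tested on simulated data.

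The genes described in full were the 15 largest rises and 15 largest falls without overlap and with 5 CPM or more in the higher group, the 10 largest gains and losses of CPM, the 12 smallest p among falls under 0.5, up to 4 members of each list and direction by p, and the first 3 of each marker list, leaving out symbols of predicted genes; a few others were added after their values were seen. The members and the 50 gene lists were chosen with earlier results of these data known. Gene positions are those of GENCODE M21 (GRCm38), and promoter sequences are from RefSeq (GRCm38.p6), where 13279 of 17117 symbols matched. Alternatives were DESeq2 1.42.0, other scalings, filters, libraries in the fit, a replicate block and leaving out each mouse. Replicate numbers were not used to pair the mice in the main fit. Some results are not reported here.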

Additional observations from a re-analysis of the deposited data

Results flagged for a closer look

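In a group of 5 mice, a mouse was set apart when its gap to the nearest other mouse exceeded Dixon's 95% limit. Of 224 groups of values tested 23 were set apart, and chance gives about 1 in 20. No cause was tested.

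Among named genes, Arg1 was 106 CPM in IL-4 MSC mouse 4 (others 147 to 164) and Eno1b 6.94 CPM in the same mouse (22.3 to 32.6), so the lower end of both rises is that mouse. In IL-4 MSC mouse 1, Nr4a3 was 29.2 CPM (others 32.1 to 33.3), H2-D1 347 CPM (263 to 282) and B2m 337 CPM (251 to 266). Kif5a was 2070 CPM in IL-4 MSC mouse 0 (2310 to 2380) and Stau2 122 CPM in IL-4 MSC mouse 4 (111 to 113). In Sham, Egr4 was 40.5 CPM (29.6 to 31.0) and Ctsd 293 CPM (228 to 243), both in mouse 4, and Pam was 257 CPM in mouse 1 (233 to 238).

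Sham mouse 4 was highest in the mean log2 CPM of macrophage markers, 1.83 (others 0.98 to 1.2), lysosome genes, 5.51 (5.30 to 5.34), complement genes, 3.12 (2.58 to 2.64), cell cycle genes, 1.69 (1.36 to 1.40), reactive astrocyte genes, 2.78 (2.36 to 2.38), and endothelial genes, 4.84 (4.6 to 4.65). Every one of these levels was below the lowest IL-4 MSC mouse. In Sham mouse 1 the eosinophil, basophil and mast cell list was at -2.19 (-2.07 to -2.03) and the posterior Hox list at -2.28 (-2.89 to -2.72). Among IL-4 MSC mice, the dendritic cell list was 1.70 in mouse 3 (2.11 to 2.25), the oligodendrocyte precursor list 5.29 in mouse 1 (5.17 to 5.18) and the mitochondrially encoded list 11.62 in mouse 1 (11.46 to 11.47). Mouse 4 was highest in the vesicle release list, 8.50 (8.39 to 8.41), and the potassium and HCN channel list, 6.38 (6.29 to 6.30).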

How the results depend on the processing

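Sham mice differed in region and macrophage markers, and small changes of either sign rest on the scaling. The number of lower genes, 3173, was 1258 with the library total, and the number under 0.5, 3060, was 1194; genes without overlap that were lower numbered 884. Leaving out each mouse in turn gave 1836 to 2692 lower genes and 1768 to 2619 of them under 0.5; the lowest counts were without Sham mouse 0 (1836) and without Sham mouse 2 (2024). The 28 genes lower by at least 1 were 61 with no filter, 11 with a stricter filter, 11 with only the 2 groups fitted, 9 with the replicate block and 116 with only the week 1 Sham mice, and 19 to 40 without 1 mouse. The percentage of calls that were higher, 49.9, was 53.8 with DESeq2 size factors, 55.9 with the upper quartile, 77.2 with the library total, 43.7 with 12 housekeeping genes, 58.9 with only the 2 groups fitted, 60.3 with the replicate block and 64.2 without Sham mouse 0. With the replicate block 3346 genes were higher and 2201 lower. Same-numbered mice correlated at 0.247, -0.037, 0.016, 0.102 and -0.103 in their deviations. So few pairs cannot decide whether a number stands for something the mice share. DESeq2 called 3268 higher and 2887 lower. Scaling to housekeeping genes, fitting only the week 1 groups with Sham, the week 3 Sham mice alone and the list counts over scalings were chosen after seeing the data. Of 62 genes run through the alternatives none changed direction, and calls were lost under at least 1 alternative for mt-Co3, mt-Nd2, Camk2a, Kif5a, Fezf2, Kank4, Fos and Npas4.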
